A study of Mus musculus with 6 samples.

Results

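The Bcl2 family decides whether a cell's mitochondria release the proteins that start apoptosis. Its transcripts were examined in haematopoietic stem cells (HSCs) of wild-type (WT) and obese mice. The members were the rows of the deposited expression table whose gene symbol was Bcl2, Bcl2l1, Mcl1, Bax, Bak1, Bcl2l11, Bbc3, Pmaip1, Bid or Bad. All 10 symbols were found among 23955 in the table. The table held 6 libraries of sorted C57BL/6 bone marrow cells at 4 months of age, each from 20000 cells that were c-Kit+, Sca-1+, CD150+, CD48- and free of lineage markers. WT littermates gave 3 libraries, and db/db mice, which are db homozygotes that lack normal leptin receptor signalling and become obese, gave the other 3. Each of 3 independent experiments contributed 1 library per genotype, called experiments 1, 2 and 3 here. How many mice went into each library is not stated in the labels. The db mutation is present in the whole animal, so a direct effect on HSCs and an effect of obesity cannot be told apart. In bulk RNA, fewer cells that express a gene and less RNA per cell cannot be told apart either.

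Family members share short stretches called BH domains and fall into 3 roles. Protectors (Bcl2, Bcl2l1 and Mcl1) hold the outer mitochondrial membrane intact by binding the other members. Effectors (Bax and Bak1) form pores in that membrane, through which cytochrome c escapes and activates caspases. BH3-only proteins (Bcl2l11, Bbc3, Pmaip1, Bid and Bad) are sensors that respond to stress or to loss of growth factors, and they neutralise protectors or activate effectors. In mice, HSC survival is known to depend on Mcl1. Much of the control of this family acts on the proteins, through cleavage, phosphorylation and rapid degradation, which transcript levels do not show.

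Values are TPM, a transcript abundance that corrects for length and sums to 1000000 in each library, so levels can be compared between genes. TPM does not carry read depth, which is therefore unknown, and each error is the spread between libraries. Markers of HSCs were present, with 9 of 9 (among them Procr, Slamf1, Kit and Ly6a) above 0 in every library, and a summed level of 1461 to 2415 TPM in WT and 2039 to 2384 TPM in db/db. Cd48, whose protein the gate selects against, was also above 0 in every library, at 5.35, 4.20 and 1.09 TPM in WT and 9.10, 21.4 and 1.63 TPM in db/db, higher in db/db in each experiment. Granulocyte markers were also present, with 9 of 10 above 0 in every library. Their sum was 4747, 548 and 475 TPM in WT libraries 1, 2 and 3, against 4132, 2254 and 1591 TPM in the db/db counterparts, so WT replicate 1 stood apart from the other WT libraries. Erythroid markers summed to 85.8 to 199 TPM in WT and 316 to 1422 TPM in db/db. Monocyte and macrophage markers, of which 5 of 6 were in the table and 4 above 0 in every library, summed to 37.8 to 80.8 and 56.7 to 126 TPM. Of 7 B-cell markers 1 was above 0 in every library and Ms4a1, Ebf1 and Pax5 were listed at 0 in all. Of 7 T- and NK-cell markers 2 were above 0 in every library and Cd3e, Cd3g and Ncr1 were listed at 0 in all. The B-cell sum was 33.1 to 61.2 and 28.8 to 60.7 TPM, and the T- and NK-cell sum 4.44 to 12.7 and 7.04 to 8.65 TPM. The part of other cell types in the members' values was not tested.

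HSCs of both genotypes carried 1 dominant protector transcript and 1 dominant effector transcript. Mcl1 averaged 219 TPM over the 6 libraries, above 96.0% of the 11931 genes tested. Bak1 averaged 129 TPM, above 92.9% of them. Then came Bad (32.5 TPM), Bid (25.7), Bax (20.6), Bcl2l1 (12.3), Bcl2 (10.5) and Bcl2l11 (9.60). Bbc3 at 0.740 TPM and Pmaip1 at 0.0367 TPM were the lowest members and lay below the mean of 1 TPM needed for testing.

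Most neighbours in this order were not separated by more than their spread. Mcl1 exceeded Bak1 in 5 of 6 libraries, with WT replicate 2 as the exception, at a Mcl1 to Bak1 ratio of 0.858. Bak1 exceeded Bad in all 6, by a factor of 2.02 to 9.50, and their library ranges did not overlap. Bad over Bid, Bid over Bax, and Bax over Bcl2l1 each held in 5 of 6 libraries, with overlapping ranges. Bcl2l1 over Bcl2 and Bcl2 over Bcl2l11 each held in 4 of 6. Bcl2l11 exceeded Bbc3 in all 6 by a factor of 4.94 to 80.6, without overlap. Bbc3 exceeded Pmaip1 in all 6, although the ranges overlapped near 0.

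**Figure D1:**
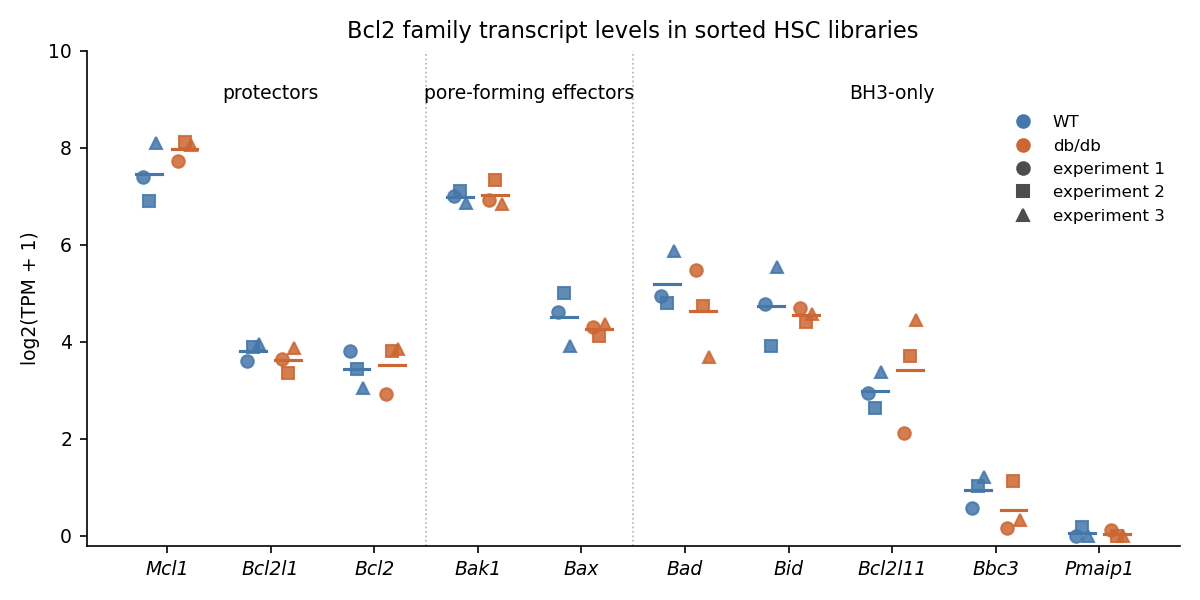
Level of each member in each library as log2(TPM + 1), WT in blue and db/db in orange, with a symbol per experiment and a bar at the group mean of the log2 values. Mcl1 and Bak1 lie above the other members in both genotypes, Bbc3 and Pmaip1 lie near 0, and the WT and db/db points overlap for all 10 members.

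The comparison of db/db with WT asked whether obesity went with a change in these transcripts. No member passed. It was made with limma on log2(TPM + 1) over all 11931 genes that averaged 1 TPM or more, and a gene passed at a Benjamini-Hochberg adjusted p under 0.05. Of the 10 members 8 were tested, and 0 were higher and 0 lower, where 0.0335% of all genes passed (4 genes, all higher). At an unadjusted p under 0.05 the count was 0 of 8 as well, beside 5.35% of all genes. The limma adjusted p of the 8 ran from 0.919 to 0.990. WT and db/db libraries overlapped for all 10 members, where 10.2% of all tested genes had groups without overlap. None of the 10 members differed in the same direction in all 3 experiments. The share of all tested genes that did so was not counted, which limits this and later statements about all 3 experiments. With the experiment as a replicate block, the limma adjusted p of the 8 members ran from 0.689 for Mcl1 to 0.974 for Bak1.

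The median log2 fold change of all tested genes was 0.18, and it was 0.00 after median-of-ratios scaling, which equalises the typical gene between libraries. The 8 tested members had a median of -0.07, and 6 of them lay below the all-gene median and 2 above. Relative to that median, the protectors stood at 0.33 (Mcl1), -0.37 (Bcl2l1) and -0.09 (Bcl2). The effectors stood at -0.14 (Bak1) and -0.43 (Bax). The tested BH3-only members stood at 0.26 (Bcl2l11), -0.74 (Bad) and -0.37 (Bid). Fold changes below are as measured unless given as relative to all genes. The 95% intervals of all 8 measured differences included 0. They ran from -0.08 to 1.09 for Mcl1, from -0.997 to 0.62 for Bcl2l1 and from -0.80 to 0.98 for Bcl2. For the effectors they ran from -0.49 to 0.58 (Bak1) and from -1.02 to 0.53 (Bax). Those of the BH3-only members ran from -0.64 to 1.51 for Bcl2l11, from -1.42 to 0.30 for Bad and from -0.995 to 0.62 for Bid. Most of these intervals leave room for sizeable differences in either direction. That of Mcl1 reaches only to -0.08 on the lower side, and that of Bad only to 0.30 on the upper side. These data therefore do not show that the members were equal in the genotypes.

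**Figure D2:**
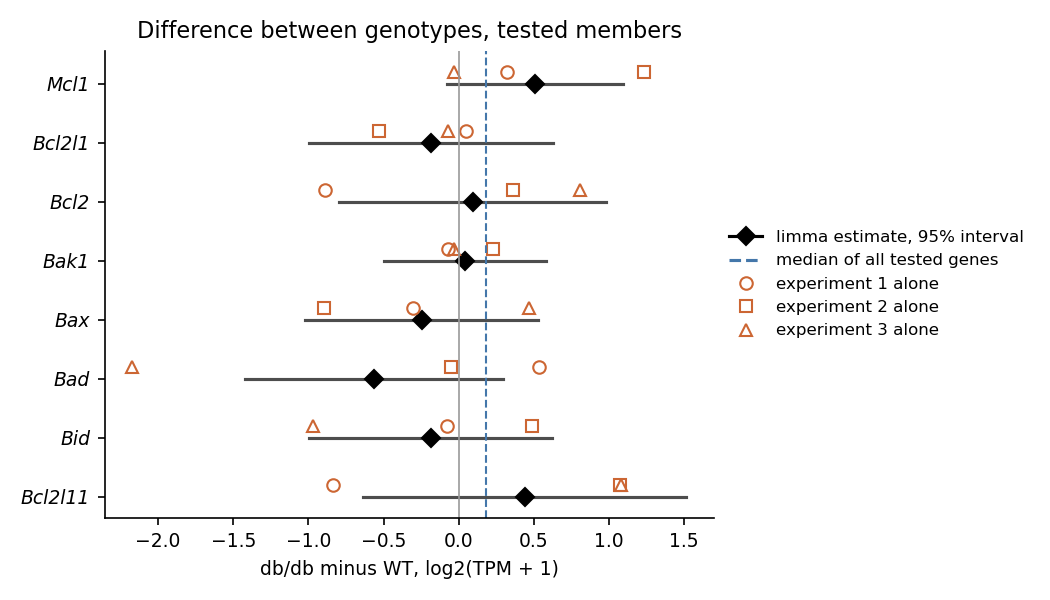
Difference between db/db and WT on the log2(TPM + 1) scale for the 8 tested members, with the limma estimate and its 95% interval in black, the difference within each experiment as an open orange symbol, and the median of all tested genes (0.18) as a dashed line. All 8 intervals include 0, and the experiments of each member fall on both sides of 0.

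Mcl1 had the smallest p of the 8 tested members. Mcl1 encodes a protector with a short-lived protein and transcript. In experiments 1, 2 and 3 it was 168, 118 and 271 TPM in WT, and 210.4, 279 and 265 TPM in db/db. WT replicates 1 and 2 lay below every db/db library, while WT replicate 3 lay within the db/db range. The means were 186 ± 78.2 and 251 ± 36.2 TPM in WT and db/db (SD, n = 3 each). Its log2 fold change was 0.51 (SE 0.28, limma adjusted p = 0.919, at least 0.284 over 19 alternatives, and unadjusted p = 0.0854). Relative to all genes it was 0.33. The differences within experiments 1, 2 and 3 were 0.32, 1.23 and -0.03, so most of the mean difference came from experiment 2. The fold change was 0.22 without WT replicate 2 and 0.82 without WT replicate 3. After division by the median-of-ratios size factors, which were lowest in WT replicate 2 (0.815) and highest in db/db replicate 3 (1.23), Mcl1 stood at 184, 145 and 238 for WT and at 229.9, 246 and 216 for db/db. WT replicate 3 then lay above 2 of the 3 db/db libraries.

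Bcl2l1 encodes Bcl-xL, a protector needed by erythroid cells and platelets, and by alternative splicing a shorter form that promotes death. The table gives 1 value per symbol, so splice forms of any member cannot be told apart. Bcl2l1 was 11.1, 13.8 and 14.4 TPM in WT and 11.5, 9.25 and 13.7 TPM in db/db, the narrowest relative spread among the protectors (coefficient of variation 16.3% over the 6 libraries). Its log2 fold change was -0.19 (SE 0.39, limma adjusted p = 0.953). The lowest value was db/db replicate 2, the library with the highest Mcl1.

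Bcl2, the founding member of the family and a protector important in lymphocytes, was 13.0, 9.91 and 7.27 TPM in WT and 6.59, 13.0 and 13.5 TPM in db/db. Its extremes were both db/db libraries, replicate 1 lowest and replicate 3 highest. The difference was -0.89 in experiment 1, 0.36 in experiment 2 and 0.81 in experiment 3, and the log2 fold change was 0.09 (SE 0.43, limma adjusted p = 0.984), which became -0.09 after median-of-ratios scaling. Mcl1 supplied 83.2% to 92.6% of the summed protector TPM, with 87.8% ± 4.68 in WT and 91.8% ± 0.972 in db/db (SD, n = 3 each). Bcl2 supplied 2.48% to 6.99% and Bcl2l1 3.07% to 9.76%. Mcl1 exceeded Bcl2l1 by a factor of 15.1, 8.53 and 18.8 in the WT libraries, against 18.3, 30.1 and 19.4 in db/db. In all 3 experiments that factor was larger in db/db, with overlap between the groups, and it was picked out after its values were seen.

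Bak1 and Bax encode effectors that can stand in for each other in many cells, Bak1 residing in the mitochondrial membrane and Bax moving there from the cytosol. In unscaled TPM Bak1 was the steadiest of the 10 members, with a coefficient of variation of 13.9%. After division by the median-of-ratios size factors it ran from 92.15 to 169, a wider relative range than that of Mcl1 (145 to 246). Bak1 was 127, 137 and 116 TPM in WT and 121, 161 and 113 TPM in db/db, so db/db libraries held both the highest and the lowest value. The means were 127 ± 10.9 and 132 ± 25.8 TPM (SD, n = 3 each), and the log2 fold change was 0.04 (SE 0.26, limma adjusted p = 0.990), which became -0.15 after median-of-ratios scaling.

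Bax was 23.4, 31.3 and 14.0 TPM in WT and 18.7, 16.4 and 19.8 TPM in db/db. The 3 db/db values lay inside the wider WT range, with means of 22.9 ± 8.66 and 18.3 ± 1.74 TPM in WT and db/db (SD, n = 3 each). The log2 fold change was -0.25 (SE 0.37, limma adjusted p = 0.929). It rested on WT replicate 2, since it was 0.0054 without that library, and it was -0.55 without WT replicate 3. Bak1 made up 81.4% to 90.8% of the effector TPM, and the ratio of Bak1 to Bax was 5.45, 4.38 and 8.23 in WT, against 6.48, 9.86 and 5.73 in db/db.

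In unscaled TPM the BH3-only members varied more between libraries, relative to their means, than the effectors. After division by the median-of-ratios size factors Bax (12.3 to 38.5) had a wider relative range than Bid (17.3 to 40.2). Bcl2l11 encodes Bim, which binds all the main protectors and is induced when cytokines are withdrawn. It was 6.73, 5.19 and 9.38 TPM in WT and 3.33, 12.0 and 20.95 TPM in db/db, so the lowest and the highest libraries were again both db/db. The means were 7.10 ± 2.12 and 12.1 ± 8.81 TPM (SD, n = 3 each), a ratio of 1.70, and the log2 fold change was 0.44 (SE 0.52, limma adjusted p = 0.926). Bcl2l11 was lower in db/db in experiment 1, by -0.84, and higher in experiments 2 and 3, by 1.07 and 1.08. Leaving out db/db replicate 3 turned the fold change to -0.08, and leaving out db/db replicate 1 gave 1.09.

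Bad encodes a sensor that growth-factor kinases hold inactive by phosphorylation, after which 14-3-3 proteins retain it in the cytosol. It was 29.7, 26.8 and 57.2 TPM in WT and 43.4, 25.9 and 11.9 TPM in db/db. The highest library was WT replicate 3 and the lowest db/db replicate 3, which belong to the same experiment. The means were 37.9 ± 16.8 and 27.1 ± 15.8 TPM (SD, n = 3 each), and the log2 fold change was -0.56 (SE 0.41, limma adjusted p = 0.920), or -0.74 relative to all genes. It came from experiment 3, where the difference was -2.17 against 0.53 and -0.05 in experiments 1 and 2. Without WT replicate 3 it was -0.23. Leaving out db/db replicate 3 gave -0.09 and leaving out db/db replicate 1 gave -0.98.

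Bid encodes a sensor that caspase-8 cleaves, which links death receptors at the cell surface to mitochondria. It was 26.5, 14.1 and 45.8 TPM in WT and 25.1, 20.2 and 22.9 TPM in db/db. The WT libraries enclosed all 3 db/db values. The log2 fold change was -0.19 (SE 0.39, limma adjusted p = 0.952), which became 0.21 without WT replicate 3 and -0.60 without WT replicate 2.

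Bbc3 encodes Puma and Pmaip1 encodes Noxa, both known as sensors that the tumour suppressor p53 induces after DNA damage. Bbc3 was 0.490, 1.05 and 1.32 TPM in WT and 0.120, 1.20 and 0.260 TPM in db/db. Pmaip1 was listed at 0 in 4 of 6 libraries, at 0.130 TPM in WT replicate 2 and at 0.0900 TPM in db/db replicate 1. Neither reached the mean of 1 TPM needed for the test, and without depth a low TPM cannot be read as absence. In the fit without that filter the log2 fold change of Bbc3 was -0.40 (95% interval -1.13 to 0.34, limma adjusted p = 0.890) and that of Pmaip1 -0.02 (95% interval -0.31 to 0.28, adjusted p = 0.985). Trp53, which encodes p53 and was picked out after its values were seen, was 336 to 504 TPM over the same 6 libraries.

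The roles were then set against each other within libraries. Ratios of this kind do not depend on the scaling between libraries, and they are given as a description with no test, because they are scores over chosen members. The protectors summed to 192, 142 and 293 TPM in WT and 228, 301 and 292 TPM in db/db. The effectors summed to 151, 169 and 129.6 TPM in WT and 139.9, 178 and 133 TPM in db/db. Protectors over effectors gave 1.27, 0.840 and 2.26 in WT, against 1.63, 1.69 and 2.20 in db/db, and the groups overlapped.

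Protectors over BH3-only members gave 3.03, 3.00 and 2.58 in WT, against 3.17, 5.08 and 5.22 in db/db. The groups did not overlap and db/db was higher in all 3 experiments, although WT replicate 1 and db/db replicate 1 were close. The protector sum left out Bcl2l2, a protector that is not among the members. Bcl2l2 was 26.8, 7.18 and 9.78 TPM in WT and 3.86, 4.14 and 11.5 TPM in db/db. With it added to the sum, WT replicate 1 would lie above db/db replicate 1 and the groups would overlap. Among single tested genes, 10.2% had groups without overlap, and the ratio without Bcl2l2 was 1 of several that were computed. The means were 2.87 ± 0.253 in WT and 4.49 ± 1.14 in db/db (SD, n = 3 each). The difference on the log2 scale was 0.62, and it ran from 0.49 to 0.85 when any 1 library was left out. In experiment 2 the higher ratio came with higher Mcl1, and in experiment 3 with lower Bad and Bid while Mcl1 differed by -0.03. Bcl2l11, which by itself lowers the ratio, was higher in db/db in both, by 1.07 and 1.08. The sum of BH3-only members was 63.4, 47.3 and 113.7 TPM in WT and 72.0, 59.2 and 56.0 TPM in db/db, so it was higher in db/db in experiments 1 and 2 and lower in experiment 3.

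The make-up of the BH3-only pool also differed between libraries. Bad made up 46.8%, 56.7% and 50.3% of it in WT, against 60.3%, 43.7% and 21.3% in db/db. Bcl2l11 made up 10.6%, 11.0% and 8.25% in WT, against 4.62%, 20.3% and 37.4% in db/db. The ratio of Bcl2l11 to Bad, picked out after its values were seen, was 0.227, 0.193 and 0.164 in WT, against 0.0767, 0.464 and 1.76 in db/db. The 3 WT libraries were thus close to each other, and the db/db libraries lay on both sides of them.

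**Figure D3:**
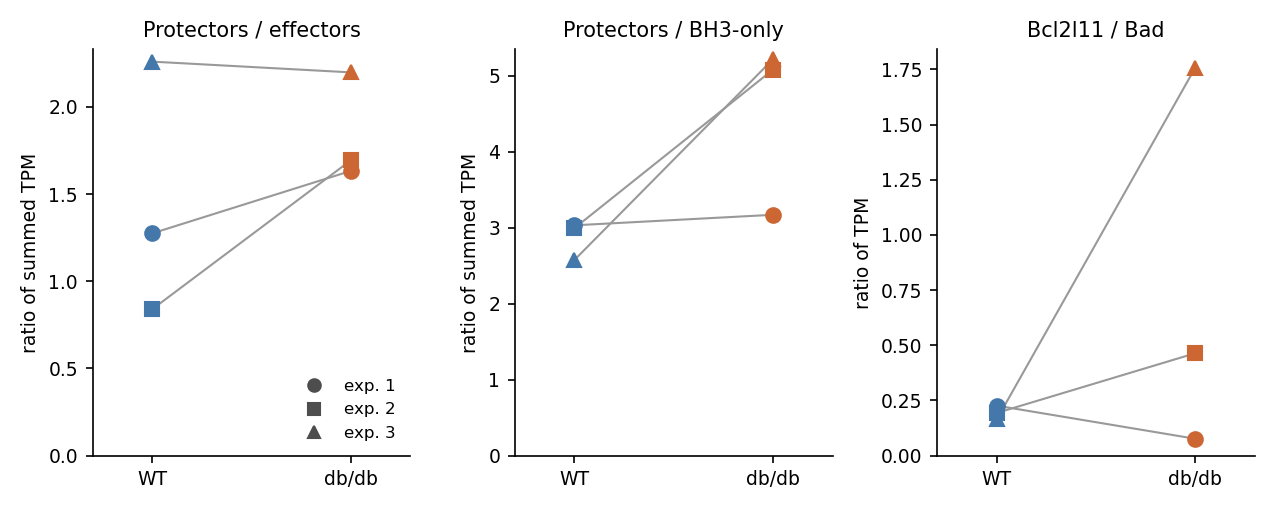
Ratio of summed protector TPM to summed effector TPM (left), of summed protector TPM to summed BH3-only TPM (middle) and of Bcl2l11 to Bad TPM (right) in each library, with a symbol per experiment and a line joining the WT and db/db libraries of an experiment. Protectors over BH3-only members lie at 2.58 to 3.03 in WT and 3.17 to 5.22 in db/db, while the other 2 ratios overlap between genotypes. The protectors are Bcl2, Bcl2l1 and Mcl1, and with Bcl2l2 added the groups of the middle panel would overlap.

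Members did not rise and fall as 1 unit over the 6 libraries. Among the 45 pairs, the correlations of log2(TPM + 1) are given as a description without p, since each rests on 6 libraries that share the scaling of their TPM. The lowest was that of Mcl1 and Bax (Pearson's r = -0.93, Spearman's rho = -0.89), and r was -0.47 without the 2 libraries farthest from the median of Mcl1. Bcl2 and Bad gave r = -0.80 (rho = -0.77, -0.40 without 2 libraries), and Bax and Bid r = -0.77 (rho = -0.49), which turned to 0.86 without 2 libraries. The highest was Bax and Pmaip1 (r = 0.65, rho = 0.51, -0.16 without 2 libraries), where Pmaip1 is near 0 throughout. Bcl2 and Bcl2l11 gave r = 0.64 (rho = 0.71, 0.72 without 2 libraries), and Mcl1 and Bcl2l11 r = 0.61 (rho = 0.66, 0.83 without 2 libraries).

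Genes around the family were taken from 6 lists with 71 symbols, of which 60 were tested. None of the 60 passed in limma, where 0.0335% of all tested genes did. An unadjusted p under 0.05 was reached by 1 of the 60, beside 5.35% of all tested genes. Groups without overlap were found for 1 of the 60, beside 10.2% of all tested genes.

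Of 16 further relatives of Bcl2, 7 were tested and 0 were higher or lower, with a median log2 fold change of 0.05 against 0.18 for all genes. Bcl2l2, which encodes the protector Bcl-w, was 26.8, 7.18 and 9.78 TPM in WT and 3.86, 4.14 and 11.5 TPM in db/db (log2 fold change -0.99, SE 0.51, limma adjusted p = 0.919), so WT replicate 1 stood above the rest, and the fold change was -0.47 without it. Bcl2l13, a mitophagy receptor whose annotated exons overlap those of Bid on the opposite strand, was 11.1 ± 0.859 and 8.24 ± 3.03 TPM (SD, n = 3 each, log2 fold change -0.43, or -0.24 when db/db replicate 2 and -0.68 when db/db replicate 3 was left out). Bnip3l, another mitophagy receptor and the most abundant of these relatives, was 60.8 ± 21.5 and 61.5 ± 11.3 TPM. Of the 16, 5 were listed at 0 in every library. The 4 near-identical copies of Bcl2a1, a protector of granulocytes and activated lymphocytes, share reads, so only their sum is given. It was listed at 0 in all 3 WT libraries and at 1.09, 2.22 and 1.11 TPM in db/db replicates 1, 2 and 3, and it was picked out after its values were seen. Granulocyte markers summed to 475 to 4747 TPM in WT and 1591 to 4132 TPM in db/db. The monocyte gene Ly6c2 was 17.9, 3.43 and 1.32 TPM in WT, against 21.97, 68.6 and 18.9 TPM in db/db. The part of such cells in the Bcl2a1 values was not tested.

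Downstream of the pore, the list of apoptosome genes, factors released from mitochondria and Vdac channels had 10 tested genes, 0 of them higher or lower, and a median of -0.0040. Vdac2, an outer-membrane channel known to bind Bak and to recruit Bax, was 168, 144 and 264 TPM in WT and 175, 290.0 and 348 TPM in db/db (log2 fold change 0.48, SE 0.29, limma adjusted p = 0.919), higher in db/db in all 3 experiments with overlap. With 1 library left out the fold change of Vdac2 ran from 0.28 (without db/db replicate 3) to 0.77 (without db/db replicate 1). Vdac1, its most abundant relative on this list, was 297 ± 45.2 and 310.0 ± 80.7 TPM. Endog, a mitochondrial nuclease, was 1.92, 3.59 and 2.51 TPM in WT and 5.63, 0.440 and 0 TPM in db/db.

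The list of other caspases, their nuclease, its inhibitor and Parp1 had 11 tested genes, 0 passing, and a median of 0.22. Casp8, the caspase that cleaves Bid, was 25.7, 10.7 and 63.4 TPM in WT and 16.1, 43.4 and 109.7 TPM in db/db (log2 fold change 0.69, SE 0.55, limma adjusted p = 0.920). It was lower in db/db in experiment 1 and higher in experiments 2 and 3. Bcl2l11, Bcl2, Vdac1 and Birc6, among others, had the same directions. The fold change of Casp8 rested on single libraries, at 0.080 without WT replicate 2, 1.31 without WT replicate 3, 1.36 without db/db replicate 1, and 0.018 when db/db replicate 3 was left out. Casp1, which processes inflammatory cytokines, was 29.4 ± 8.47 and 40.0 ± 9.38 TPM, and Casp2, the most abundant caspase here, 106 ± 39.3 and 118 ± 39.6 TPM (SD, n = 3 each).

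The list of inhibitors of apoptosis, made up of Xiap, Birc and Naip genes, had 8 tested genes, 0 passing, and a median of 0.22. Some of these genes, but not all, encode proteins that block caspases or the complexes that activate them. Birc2, which encodes the ubiquitin ligase cIAP1, was the 1 gene of the 60 with an unadjusted p under 0.05, a level that 5.35% of all tested genes reached. It was 17.4, 23.5 and 32.0 TPM in WT and 27.9, 55.3 and 45.2 TPM in db/db, higher in db/db in all 3 experiments, with overlap between WT replicate 3 and db/db replicate 1. Its log2 fold change was 0.78 (SE 0.35, unadjusted p = 0.0382, limma adjusted p = 0.919). Birc6 was 15.8 ± 2.55 and 23.8 ± 8.02 TPM, and Birc5, which encodes the mitotic protein survivin, 87.2 ± 26.2 and 79.5 ± 11.2 TPM.

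The death receptor arm had 10 tested genes, 0 passing, and a median of 0.14. Mlkl, the membrane-breaking protein of necroptosis, had means of 15.4 ± 7.37 and 25.5 ± 10.8 TPM in WT and db/db (log2 fold change 0.71, SE 0.41, limma adjusted p = 0.919), or 0.40 when db/db replicate 2 was left out. Tnfrsf21, the death receptor DR6, was the most abundant gene of the list at 56.4 ± 27.0 and 78.7 ± 19.7 TPM (SD, n = 3 each), higher in db/db in all 3 experiments.

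Genes that control the members' transcription or proteins had 14 tested, 0 passing, and a median of 0.18. Ywhaz, a 14-3-3 protein of the kind that holds phosphorylated Bad in the cytosol, was 677, 502 and 847 TPM in WT and 752, 1024 and 993 TPM in db/db (log2 fold change 0.47, SE 0.23, limma adjusted p = 0.919). March5, a mitochondrial ubiquitin ligase known to affect the stability of Mcl1 complexes, was 47.6, 22.7 and 40.4 TPM in WT and 48.2, 59.8 and 49.8 TPM in db/db. It was the 1 tested gene of the 60 whose groups did not overlap, with 47.6 TPM in WT replicate 1 just under 48.2 TPM in db/db replicate 1. After division by the median-of-ratios size factors the groups overlapped, with 52.0 in WT replicate 1 and 40.6 in db/db replicate 3. The log2 fold change of March5 was 0.56 (SE 0.33, limma adjusted p = 0.919), and 0.25 without WT replicate 2. That library was also low for Ywhaz, whose fold change was 0.27 without it.

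**Figure D4:**
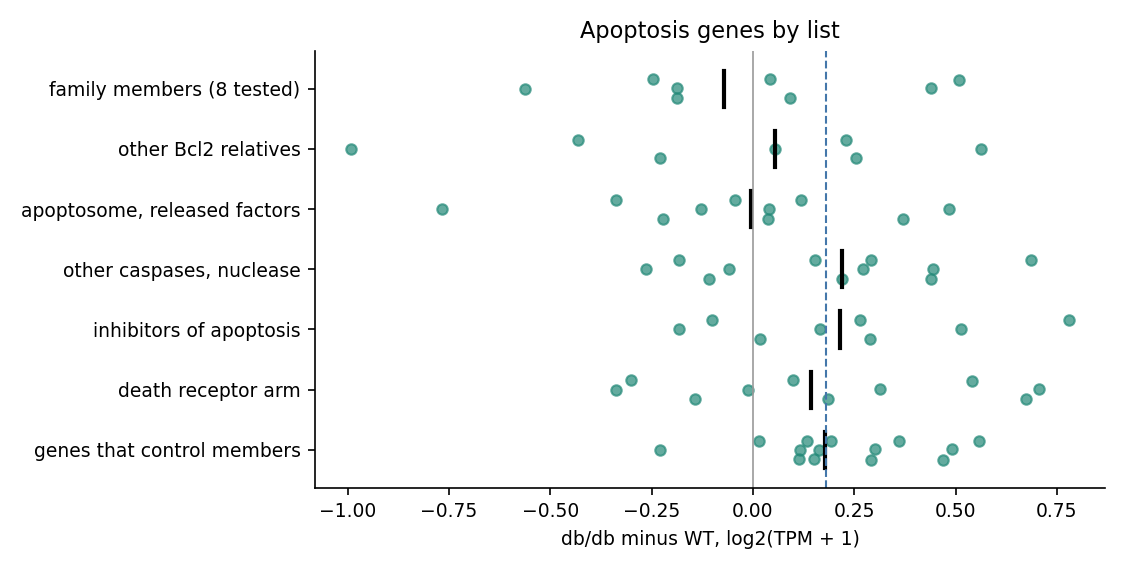
Log2 fold change of db/db against WT on the log2(TPM + 1) scale for each tested gene (green points) of the family and of the 6 lists around it, with the median of each list as a black bar and the median of all tested genes as a dashed line at 0.18. The family's median is -0.07 and the list medians lie between -0.0040 and 0.22; points are spread vertically for legibility only.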

How the data were processed

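The labels describe 6 stranded poly(A) libraries read as pairs of 75 nucleotides, 3 per genotype. The deposited table gives TPM for each gene symbol. Per the submitters' processing notes, the authors used RSEM and Bowtie2 with mm9. Versions, settings, the annotation and the use of strand are not given in the sources used here. TPM holds no depth. In a later mouse annotation (GENCODE M21), exons of Bak1, Bid and Bad overlap genes on the opposite strand (Ggnbp1, Bcl2l13 and Gpr137, at means of 2.47, 9.65 and 7.82 TPM), so if strand was not used their reads could mix. Coordinates are not printed, because that annotation is of a later build than mm9.

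Log2(TPM + 1) values were fitted with limma 3.58.1 (R 4.3.3), with genotype as the single term and trended moderation. Tests were two-sided, with Benjamini-Hochberg adjustment over all 11931 genes that averaged 1 TPM or more. The log2(TPM + 1) scale understates changes of low genes. The code was tested on simulated data. The pairing for the replicate block comes from the labels, where a WT library and a db/db library share each experiment number. Within experiments, the libraries' deviations from their group means had correlations of 0.04, 0.01 and 0.16 across genes. Nothing says that libraries came from separate mice, so p-values measure the spread between these libraries. All members were named, and from each list the 2 genes of smallest p and the gene of highest mean. The members and lists were chosen with earlier results of these data known. Alternatives were pseudocounts of 0.1 and 0.5, no filter or a mean of 5 TPM, median-of-ratios scaling, quantile normalization, other moderation, array weights, the replicate block, each library left out, and an adjusted p under 0.1. Added after the data were seen were removal of the rRNA-like symbols Rn45s, Gm20594 and Lars2, and the block with median-of-ratios scaling.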

Additional observations from a re-analysis of the deposited data

How the results depend on the processing

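No member and no gene of the 6 lists passed under any of the 19 alternatives, and none of the 455 fold changes recomputed for the 24 named genes with a test passed in limma. The lowest adjusted p was 0.284 for a member (Mcl1) and 0.158 for another named gene (Birc2). The replicate block changed no call, and with it the count over all genes was 6. That count, 4 in the comparison as reported, was 0 without a filter or without the trend, 1 after median-of-ratios scaling, quantile normalization or with a robust prior, 16 with array weights and 7 at an adjusted p under 0.1. With 1 library left out it ran from 0 (without db/db replicate 2) to 16 (without WT replicate 1). Mcl1 (0.22 to 0.82), Bcl2l1 (-0.40 to -0.05) and Bad (-0.98 to -0.09) kept their sign in all 19. After median-of-ratios scaling, with or without the block, the fold changes were -0.093 for Bcl2, -0.15 for Bak1, -0.14 for Bnip3l, -0.15 for Vdac1 and -0.040 for Casp2, and after quantile normalization -0.11, -0.088, -0.12, -0.035 and -0.024, all opposite to the values reported. With 1 library left out the ranges that crossed 0 were -0.10 to 0.39 for Bcl2, -0.55 to 0.0054 for Bax, -0.11 to 0.14 for Bak1, -0.078 to 1.09 for Bcl2l11, -0.60 to 0.21 for Bid, -0.11 to 0.32 for Bnip3l, -0.16 to 0.21 for Vdac1, -0.092 to 0.44 for Casp2 and -0.30 to 0.12 for Birc5. The causes of these turns were not tested. Depth is unknown, so what it limits could not be measured.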
